A study of Mus musculus with 6 samples.

Results

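The genes of pyruvate entry and the citric acid cycle were measured in the hearts of mice lacking Arrdc4. They are 32 genes, picked by name from the 49315 gene rows of the count table. They encode the mitochondrial pyruvate carriers, the pyruvate dehydrogenase complex, the enzymes of the citric acid cycle, the aspartate aminotransferases and malate dehydrogenases of the malate-aspartate shuttle, and the enzymes that join pyruvate to oxaloacetate and malate. Whole-heart RNA was sequenced from 3 mice with an ARRDC4 knock-out made by CRISPR-Cas9 (KO) and from 3 wild-type mice (WT), all on a C57BL/6 background. The sources used here do not state age, sex, the edited part of the gene, the number of founder lines or any treatment. Nothing in those sources says whether hearts of 1 group came from separate litters, so p-values measure the spread between these samples.

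In heart muscle most ATP comes from mitochondria. Pyruvate made from glucose or lactate crosses the inner membrane through the Mpc1-Mpc2 carrier, is turned into acetyl-CoA by the pyruvate dehydrogenase complex, and meets acetyl-CoA from fatty acids at citrate synthase. Each turn of the cycle loads NADH and, at succinate dehydrogenase, ubiquinol for the respiratory chain. Malate dehydrogenases and aspartate aminotransferases on both sides of the membrane carry the electrons of cytosolic NADH inward. Arrdc4 is an alpha-arrestin and, like its relative Txnip, is known to lower glucose uptake into cells.

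All 32 genes lie on 17 chromosomes of GRCm38 (GENCODE release M21), and Pdha1 and Idh3g are on the X chromosome. RefSeq promoter windows of build GRCm38.p6 were found for 29 of them, and none for Sdhc, Idh3a and Me2. The 250 bases before the RefSeq start were searched for motifs, and are printed for 5 genes. Got1 had the smallest p of the 32 with all hearts and Pdhb the smallest with 2 hearts left out. Sdha held matches to a site of NRF1, a factor of nuclear genes for mitochondrial proteins. Sucla2 and Suclg2 encode alternative subunits whose ratio is described further on. Each runs 5′ to 3′ on the gene's strand and ends at the base before the RefSeq start. Capitals mark CCAAT (the letters bound by NF-Y) or the NRF1 site (GCGC, then any base, then T, then GCGC), on either strand.
Got1: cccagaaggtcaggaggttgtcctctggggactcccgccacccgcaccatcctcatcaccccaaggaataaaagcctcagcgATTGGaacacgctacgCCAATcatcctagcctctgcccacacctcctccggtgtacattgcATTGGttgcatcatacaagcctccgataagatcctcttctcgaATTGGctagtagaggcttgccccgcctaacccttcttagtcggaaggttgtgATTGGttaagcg
Pdhb: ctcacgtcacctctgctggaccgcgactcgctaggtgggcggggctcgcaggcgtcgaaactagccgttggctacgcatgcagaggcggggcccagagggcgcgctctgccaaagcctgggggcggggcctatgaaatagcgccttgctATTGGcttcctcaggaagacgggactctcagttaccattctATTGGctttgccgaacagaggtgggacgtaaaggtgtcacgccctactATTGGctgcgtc
Sdha: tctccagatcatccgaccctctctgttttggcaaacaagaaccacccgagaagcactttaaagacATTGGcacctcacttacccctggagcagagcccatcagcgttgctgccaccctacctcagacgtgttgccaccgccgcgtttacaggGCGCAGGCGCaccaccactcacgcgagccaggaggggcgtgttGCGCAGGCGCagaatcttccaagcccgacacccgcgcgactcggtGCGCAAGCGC
Sucla2: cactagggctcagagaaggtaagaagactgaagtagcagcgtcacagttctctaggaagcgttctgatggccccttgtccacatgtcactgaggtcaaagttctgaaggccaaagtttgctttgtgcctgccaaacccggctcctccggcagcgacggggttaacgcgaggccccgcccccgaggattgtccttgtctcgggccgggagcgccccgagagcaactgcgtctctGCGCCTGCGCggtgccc
Suclg2: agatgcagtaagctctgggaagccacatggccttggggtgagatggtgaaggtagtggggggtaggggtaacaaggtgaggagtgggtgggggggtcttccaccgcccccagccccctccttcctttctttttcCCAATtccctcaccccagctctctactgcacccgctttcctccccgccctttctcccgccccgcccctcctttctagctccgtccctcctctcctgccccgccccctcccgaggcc

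The windows are chr19:43524606-43524855 on the minus strand, chr14:8172993-8173242 on the minus strand, chr13:74350241-74350490 on the minus strand, chr14:73552536-73552785 on the plus strand and chr6:95718847-95719096 on the minus strand. RefSeq and GENCODE starts differ: the last 33 printed bases of Pdhb, 40 of Sdha and 121 of Sucla2 lie past the start of the GENCODE principal transcript. The RefSeq start of Sucla2 is 27467 bases inside the GENCODE gene, whose first base belongs to another transcript. For 5 of the 29 genes, Mpc1, Mpc2, Sucla2, Mdh1 and Me3, every such stretch lay wholly inside the GENCODE gene. CCAAT was present before the RefSeq start of 17 of 29 genes (58.6%) and of 39.5% of 17491 protein-coding genes with such windows. The printed stretch of Got1 held 5 matches and that of Pdhb 3. The NRF1 site was present in the stretch of 3 genes, Sdha, Sdhd and Sucla2 (10.3%), and of 5.84% of protein-coding genes, and Sdha held 3 matches. Neither TNAAGGTCA, a site of the estrogen-related receptors, nor CCGGAAGT, an ETS site read by GABPA, was found in any of the 29, against 1.11% and 4.26% of protein-coding genes. Among the 29, Sdha alone held both CCAAT and the NRF1 site, and its matches did not overlap. A match describes the letters alone.

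The libraries held 29974501 to 41036626 counts, and between 2.07% and 2.43% of them fell on the 32 genes. All 32 were counted in every heart, with 207 to 103757 counts per gene and library, and all passed the filter on low counts. Arrdc4 itself had 5, 1 and 2 counts in KO hearts 1 to 3, against 349, 307 and 281 in WT hearts 1 to 3. Levels are given as CPM, counts relative to library sizes scaled by TMM. The 10 cardiomyocyte markers, among them the contractile genes Myh6, Tnnt2, Tnni3, Actc1 and Myl2, summed to 52769 to 67042 CPM in KO hearts and 53634 to 61318 CPM in WT hearts, and the atrial marker Myl7 was at 0 in WT heart 2. Single markers could move more than the sum. Myh6 was lowest in KO heart 2 and WT heart 3, at 9167 and 10042 CPM, against 17169 to 29523 CPM in the other hearts. Myl2 was highest in that pair of hearts, at 11846 and 11698.5 CPM, against 5054 to 7438 CPM. In whole-heart RNA, fewer cells of a type and less RNA per cell cannot be told apart.

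KO heart 2 and WT heart 3 stood apart from the other 4 hearts and were close to each other. Chi-square per degree of freedom, over the counts of tested genes, was 7.77 between them and 26.9 to 179 for the other 14 pairs of libraries. Arrdc4 still followed the label in each, at 0.0345 CPM in KO heart 2 and 8.39 CPM in WT heart 3. Among nuclear protein-coding genes, transcripts under 1500 bases took 30.9% of the counts in KO heart 2 and 30.7% in WT heart 3, and 21.3% to 24.5% in the other hearts. Counts over the 32 genes and every fold change in the plot of fold changes are given with and without this pair of hearts.

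The comparison of KO with WT hearts asks which transcripts differ once Arrdc4 is lost. None of the 32 genes passed the test, in either direction. With an adjusted p under 0.05 in edgeR's quasi-likelihood test over 14508 genes, 0 of 32 were called, where 0.00689% of all tested genes were called (Arrdc4 alone). DESeq2 and limma-voom also called 0 of the 32, where they called 0.0039% and 0.00689% of genes. At an unadjusted p under 0.05, edgeR held 0 of the 32, against 1.23% of all tested genes. No gene of the 32 had its 3 KO values all below or all above its 3 WT values, which 1.9% and 2.18% of tested genes had. Fitted values were lower in KO hearts for 27 genes and higher for 5, Ogdh, Suclg2, Sdha, Me1 and Me3. The share of tested genes with a lower value was 47.7%. The median log2 fold change was -0.085 over the 32 genes and 0.0092 over all tested genes, and the 32 values ran between -0.31 (Got1) and 0.15 (Me1). The 95% interval lay within a 2-fold difference either way for 32 of 32 genes, against 76.5% of tested genes, and within a 1.5-fold difference for 17, against 39.7%.

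**Figure D1:**
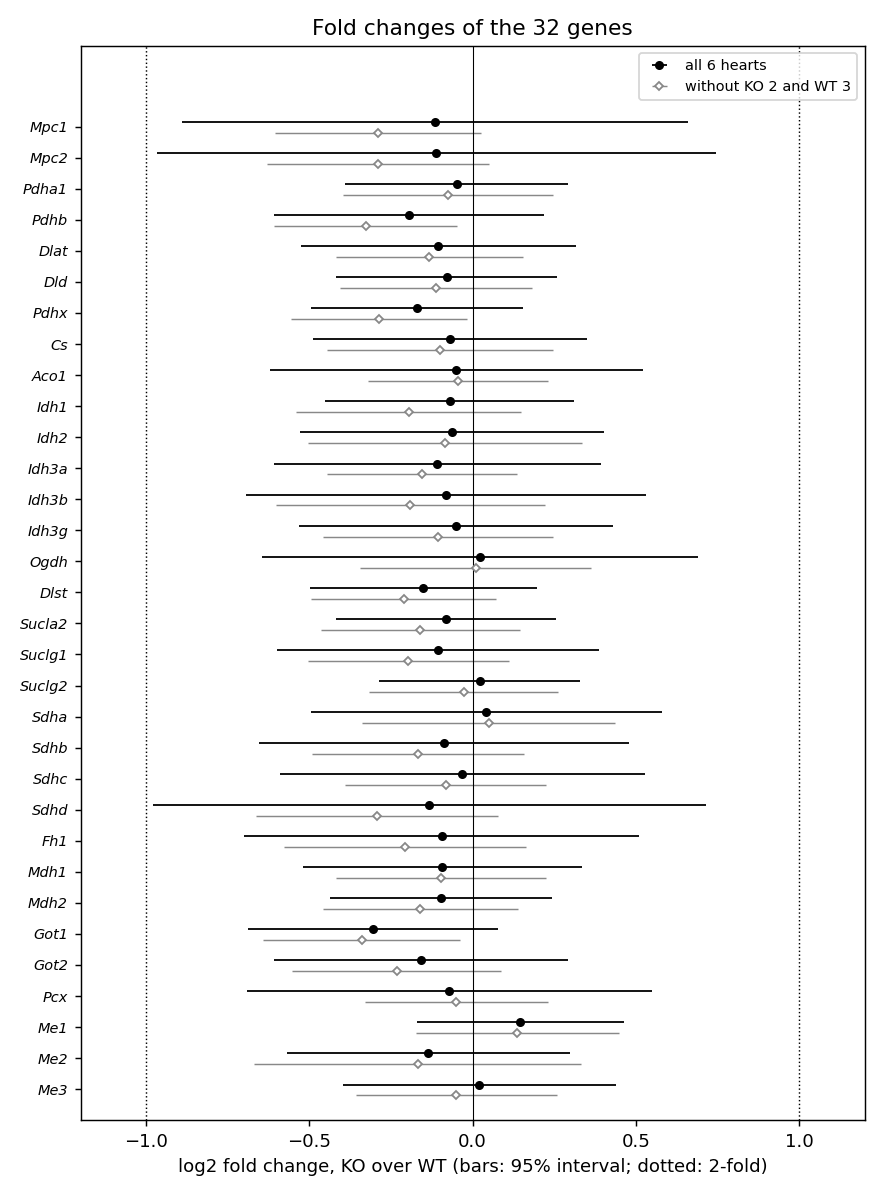
Log2 fold change of each of the 32 genes, KO over WT (x axis, log2 scale), with genes down the page in the order of the pathway; filled points are fits to all 6 hearts, open diamonds are fits without KO heart 2 and WT heart 3, and bars are 95% intervals. Every interval lies inside the dotted lines at a 2-fold difference, and 27 filled points lie below 0.

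Without KO heart 2 and WT heart 3, which leaves 2 hearts per genotype, 29 of the 32 genes had lower values in KO hearts, where 50.3% of 14610 tested genes did. Their median log2 fold change was then -0.16, against -0.0013 over all tested genes. None passed the adjusted threshold in edgeR, which 0.0137% of genes did (0.00684% lower and 0.00684% higher in KO). At an unadjusted p under 0.05 stood 3 of the 32, Pdhb, Got1 and Pdhx, against 6.71% of all tested genes. KO heart 1 was the lowest of all 6 hearts for 20 genes, and without KO heart 1 (all other hearts kept) 18 genes were lower in KO and the median was -0.0064. Without WT heart 3 alone, 17 genes were lower in KO and the median was -0.05, and without KO heart 2 alone the median was -0.14. KO heart 1 also held the highest summed level of 8 fibroblast markers, 1241 CPM, with 419 and 875 CPM in KO hearts 2 and 3, against 555, 758 and 503 CPM in WT hearts 1 to 3. Of those markers 7 of 8 had a higher mean in KO hearts, and none was at 0 in any heart. The 7 epicardial markers summed to 37.0, 5.72 and 20.4 CPM in KO hearts, against 13.5, 8.23 and 7.10 CPM in WT hearts, with 7 of 7 higher on average in KO and none at 0. Endothelial and macrophage markers were also highest in KO heart 1. The 5 endothelial markers summed to 625, 283 and 481 CPM in KO hearts, against 399.8, 538 and 294 CPM in WT hearts. The 5 macrophage markers summed to 306, 182 and 167 CPM in KO hearts, against 199, 215 and 255 CPM in WT hearts. In each of these lists 4 of 5 had a higher mean in KO and none was at 0. The sums of smooth muscle and red cell markers were highest elsewhere, in WT heart 3 and KO heart 2, but single markers differed. Hbb-bs was highest in KO heart 2, at 499 CPM, and Hba-a1 in KO heart 1, at 240.5 CPM. For each marker, a relative level was taken as log2 CPM minus its mean over the 6 hearts. The median of these was highest in KO heart 1 for both lists, at 0.34 for smooth muscle and 0.39 for red cells. The 5 smooth muscle and pericyte markers summed to 736, 695 and 635 CPM in KO hearts, against 658, 556 and 811 in WT hearts. The 5 red cell markers summed to 765, 800 and 453 CPM in KO hearts, against 525, 674 and 759 in WT hearts. Means were higher in KO for 4 of 5 and 5 of 5 of them. The 10 cardiomyocyte markers summed to 56367, 52769 and 67042 CPM in KO hearts, against 53634, 61318 and 54880 CPM in WT hearts. Of them 5 of 10 had a higher mean in KO, and their median relative level was highest in KO heart 1, at 0.30. The part of these cell types in the lower values was not tested.

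**Figure D2:**
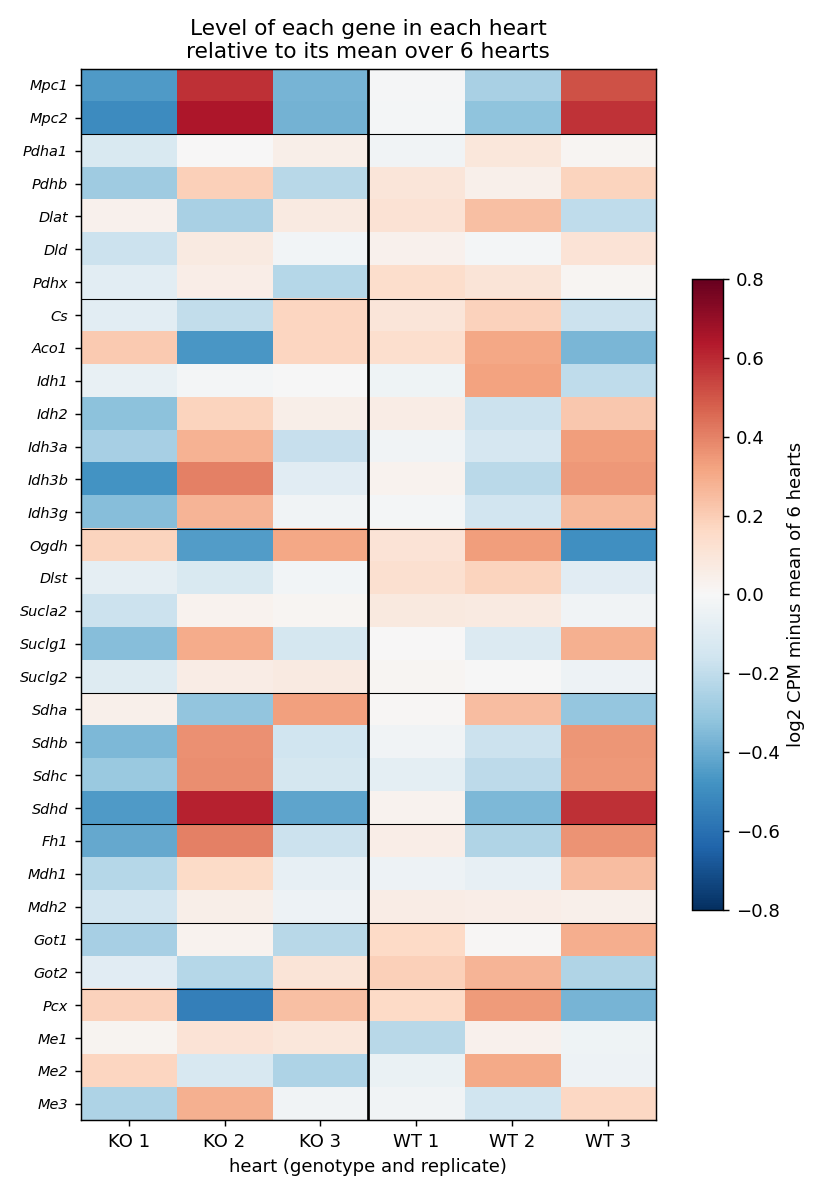
Level of each gene in each heart, as log2 CPM minus the gene's mean over the 6 hearts (colour scale, red higher and blue lower); columns are KO hearts 1 to 3 and then WT hearts 1 to 3, and rows follow the pathway with lines between its steps. KO heart 2 and WT heart 3 share a pattern, red for Mpc1, Mpc2 and Sdhd and blue for Ogdh, Aco1 and Pcx.

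The pyruvate carriers overlapped between genotypes, and with Sdhd they had the widest ranges over the 6 hearts of the 32 genes. Mpc1 and Mpc2 form the heterodimer through which pyruvate enters the matrix. Mpc1 (ENSMUSG00000023861, GRCm38 chr17:8282904-8297661, plus strand) had 226, 463 and 239 CPM in KO hearts 1 to 3, against 308, 258 and 440.0 CPM in WT hearts 1 to 3. The highest were KO heart 2 and WT heart 3, and the groups overlapped (log2 fold change -0.11, SE 0.33, 95% interval -0.89 to 0.66). Mpc2 averaged 383 ± 182 CPM in KO hearts and 414 ± 135 CPM in WT hearts (SD, n = 3 each; log2 fold change -0.11, SE 0.36), and its highest heart was 2.22 times its lowest. The count ratio of Mpc1 to Mpc2 was the steadiest of 17 ratios, 0.848, 0.781 and 0.823 in KO hearts 1 to 3, against 0.823, 0.850 and 0.779 in WT hearts 1 to 3. Mpc1-ps, an annotated pseudogene that is 99.7% identical to Mpc1 over 330 bases, had 13.2% as many counts as Mpc1, so reads may be split between them. Without KO heart 2 and WT heart 3 the log2 fold changes were -0.29 for Mpc1 (SE 0.13) and -0.29 for Mpc2 (SE 0.14).

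All 5 subunit genes of the pyruvate dehydrogenase complex had lower values in KO hearts, and none passed the test. Pdhx, the protein that anchors the E3 enzyme to the core of the complex, had 141, 156 and 128 CPM in KO hearts 1 to 3, against 165, 162 and 152 CPM in WT hearts 1 to 3. Only KO heart 2 reached into the WT range (log2 fold change -0.17, SE 0.14, 95% interval -0.49 to 0.16). Pdhb (ENSMUSG00000021748, GRCm38 chr14:8165996-8173025, minus strand), the beta subunit of the E1 enzyme that decarboxylates pyruvate, was chosen after its values were seen and had 523, 725 and 545 CPM in KO hearts 1 to 3, against 679, 653 and 720.4 CPM in WT hearts 1 to 3. KO hearts 1 and 3 lay below every WT heart and KO heart 2 above them all (log2 fold change -0.20, SE 0.18, 95% interval -0.61 to 0.22). Leaving out KO heart 2 and WT heart 3 gave Pdhb a log2 fold change of -0.33 (SE 0.12), with an adjusted p of 0.704 in edgeR. Pdha1, the E1 alpha subunit and the target of the inhibitory kinases, averaged 1209 ± 73.7 CPM in KO hearts and 1250.0 ± 51.2 CPM in WT hearts (SD, n = 3 each; log2 fold change -0.049, SE 0.15). Dlat, the acetyltransferase core, averaged 480.1 ± 58.6 CPM in KO hearts and 516 ± 78.8 CPM in WT hearts (log2 fold change -0.10, SE 0.18). Dld, the E3 dehydrogenase shared with the oxoglutarate complex, averaged 540.2 ± 45.4 CPM in KO hearts and 571 ± 25.1 CPM in WT hearts (log2 fold change -0.079, SE 0.14).

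From citrate to oxoglutarate, all 7 genes had slightly lower fitted values in KO hearts and none passed. Cs, citrate synthase, averaged 1252 ± 167 CPM in KO hearts and 1314 ± 164 CPM in WT hearts (SD, n = 3 each; log2 fold change -0.07, SE 0.18). Of the NAD-linked isocitrate dehydrogenase, Idh3a, the catalytic alpha subunit, had 594, 869 and 629 CPM in KO hearts 1 to 3, against 701, 652 and 900.3 CPM in WT hearts 1 to 3. WT heart 3 and KO heart 2 were the highest and the groups overlapped (log2 fold change -0.11, SE 0.21, 95% interval -0.61 to 0.39). Its other subunits were also highest in that pair of hearts. Idh3b averaged 753 ± 231 CPM in KO hearts and 797 ± 156 CPM in WT hearts (log2 fold change -0.081, SE 0.26). Idh3g averaged 453 ± 95.7 CPM in KO hearts and 469.6 ± 68.8 CPM in WT hearts (log2 fold change -0.051, SE 0.20).

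Of the NADP-linked enzymes, Idh2 lay far above Idh1, at 699 against 16.9 CPM per kb of exon in KO hearts and 730.1 against 17.8 in WT hearts. Mitochondrial Idh2 had 1459, 2069.9 and 1895 CPM in KO hearts 1 to 3, against 1909, 1626 and 2133 CPM in WT hearts 1 to 3. Cytosolic Idh1 had 45.8, 47.3 and 47.7 CPM in KO hearts 1 to 3, against 46.6, 59.7 and 41.5 CPM in WT hearts 1 to 3. KO hearts were nearly alike for Idh1 while WT hearts held both its highest and its lowest value, and the log2 fold changes were -0.064 for Idh2 (SE 0.20) and -0.07 for Idh1 (SE 0.16). Aco1, the cytosolic aconitase that also serves as iron regulatory protein, averaged 34.7 ± 8.33 CPM in KO hearts and 36.0 ± 8.24 CPM in WT hearts (SD, n = 3 each; log2 fold change -0.05, SE 0.24).

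At the oxoglutarate dehydrogenase complex, Dlst, the succinyltransferase core, had 653, 631 and 678 CPM in KO hearts 1 to 3, against 753, 779 and 647 CPM in WT hearts 1 to 3. KO values were close together, and WT heart 3 fell among them (log2 fold change -0.15, SE 0.15, 95% interval -0.50 to 0.20). Ogdh, the decarboxylating subunit, chosen after its values were seen, had 2419.9, 1565 and 2649.5 CPM in KO hearts 1 to 3, against 2308, 2699 and 1521 CPM in WT hearts 1 to 3. The lowest hearts were KO heart 2 and WT heart 3, and the other 4 lay together above them (log2 fold change 0.024, SE 0.28, 95% interval -0.64 to 0.69). Ogdh was thus low in the pair of hearts where Mpc1, Mpc2 and Sdhd were high.

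Succinyl-CoA synthetase pairs the alpha subunit Suclg1 with either of 2 beta subunits, Sucla2, which makes ATP, or Suclg2, which makes GTP. Sucla2 (ENSMUSG00000022110, GRCm38 chr14:73525319-73596142, plus strand) had 527, 608 and 602 CPM in KO hearts 1 to 3, against 629, 625 and 584 CPM in WT hearts 1 to 3. Suclg2 (ENSMUSG00000061838, GRCm38 chr6:95473009-95718800, minus strand) had 188, 210.4 and 212 CPM in KO hearts 1 to 3, against 204, 202 and 196 CPM in WT hearts 1 to 3. Neither passed the test (log2 fold change -0.082, SE 0.14 for Sucla2 and log2 fold change 0.021, SE 0.13 for Suclg2), and Suclg2 was the gene with the narrowest range of the 32, 1.13-fold over the 6 hearts. The ratio of Sucla2 to Suclg2 counts was 2.81, 2.89 and 2.83 in KO hearts 1 to 3, against 3.09, 3.10 and 2.98 in WT hearts 1 to 3. Every KO heart lay below every WT heart, and the mean log2 ratio differed by -0.10 (KO minus WT; SD 0.02 in KO and 0.033 in WT, n = 3 each). The exact two-sided permutation p was 0.1, the smallest that 3 against 3 allows, and 1 when adjusted over the 17 ratios compared. The difference was -0.13 without KO heart 2 and WT heart 3. Suclg1 averaged 361 ± 84.4 CPM in KO hearts and 388 ± 56.0 CPM in WT hearts (log2 fold change -0.11, SE 0.21).

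**Figure D3:**
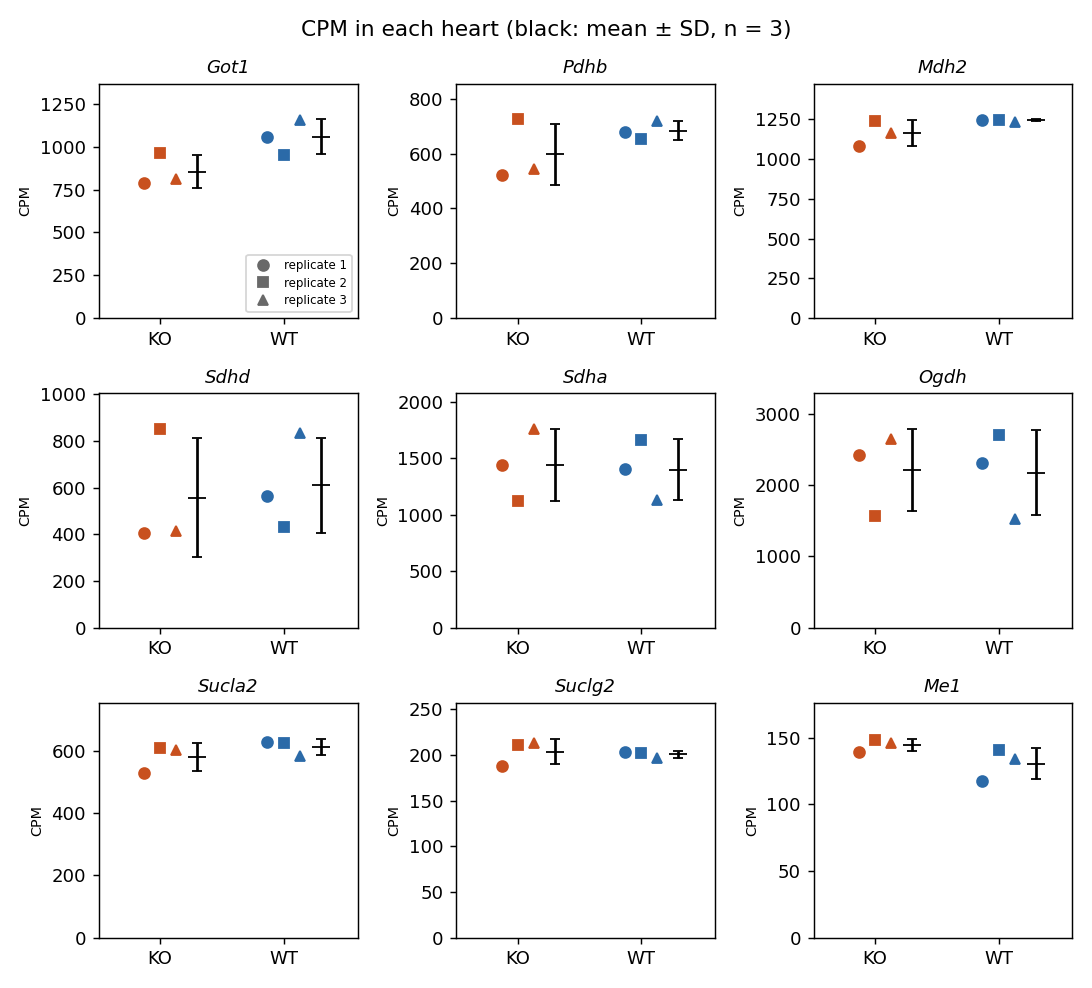
CPM (y axis, from 0) of 9 genes in each of the 3 KO hearts (orange) and 3 WT hearts (blue), with marker shape for the replicate number and black bars for the mean ± SD. KO heart 2 and WT heart 3 are highest for Sdhd and lowest for Ogdh and Sdha, while Suclg2 stays between 188 and 212 CPM in all 6 hearts.

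Succinate dehydrogenase is also complex II of the respiratory chain. Counts of its subunits moved in opposite directions in KO heart 2 and WT heart 3, the pair that stood apart from the other hearts. Sdhd, a membrane anchor, had 406, 850.4 and 415 CPM in KO hearts 1 to 3, against 567, 433 and 833 CPM in WT hearts 1 to 3. The pair of KO heart 2 and WT heart 3 had about the same level, far above the others (log2 fold change -0.13, SE 0.36, 95% interval -0.98 to 0.71). Sdha, the flavoprotein subunit, chosen after its values were seen, had 1439, 1125 and 1757 CPM in KO hearts 1 to 3, against 1408, 1664 and 1128 CPM in WT hearts 1 to 3. Here the same pair of hearts was the lowest (log2 fold change 0.041, SE 0.23, 95% interval -0.50 to 0.58). The count ratio of Sdha to Sdhb, the iron-sulfur subunit, was 2.14, 1.02 and 2.28 in KO hearts 1 to 3, against 1.67, 2.18 and 1.02 in WT hearts 1 to 3. This 2.25-fold range was the widest of the 17 ratios, and the genotypes differed by 0.14 on the log2 scale (KO minus WT; exact permutation p = 0.8), or by -0.16 to 0.51 with 1 heart left out (lowest without WT heart 3, highest without KO heart 2). Sdhb averaged 850.1 ± 228 CPM in KO hearts and 904 ± 176 CPM in WT hearts (log2 fold change -0.088, SE 0.24). Sdhc, the other anchor, averaged 623 ± 158 CPM in KO hearts and 636 ± 133 CPM in WT hearts (log2 fold change -0.031, SE 0.24). Principal transcripts were 2900 bases for Sdha, 1142 for Sdhb, 3171 for Sdhc and 1231 for Sdhd. The part of transcript length in this split was not tested.

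Fumarate and malate enzymes had lower fitted values in KO hearts for 3 of 3 genes, none past the test. Fh1, fumarate hydratase, averaged 523 ± 158 CPM in KO hearts and 558 ± 115 CPM in WT hearts (SD, n = 3 each; log2 fold change -0.094, SE 0.26). Mitochondrial Mdh2 had 1079.6, 1242 and 1167 CPM in KO hearts 1 to 3, against 1249, 1245 and 1236 CPM in WT hearts 1 to 3. WT hearts were nearly identical, and KO heart 2 was within their range (log2 fold change -0.10, SE 0.14, 95% interval -0.44 to 0.24). Cytosolic Mdh1, its partner in the malate-aspartate shuttle, had 1835, 2383 and 2051 CPM in KO hearts 1 to 3, against 2086, 2047 and 2549.9 CPM in WT hearts 1 to 3. WT heart 3 and KO heart 2 were highest and the groups overlapped (log2 fold change -0.092, SE 0.18).

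Got1 had the smallest p of the 32 genes. It encodes the cytosolic aspartate aminotransferase, which turns aspartate into oxaloacetate for Mdh1. Got1 (ENSMUSG00000025190, GRCm38 chr19:43499752-43524605, minus strand) had 788, 965 and 813 CPM in KO hearts 1 to 3, against 1059, 954 and 1159 CPM in WT hearts 1 to 3. KO hearts 1 and 3 lay below all WT hearts, and KO heart 2 lay just above WT heart 2 (log2 fold change -0.31, SE 0.16, 95% interval -0.69 to 0.078; unadjusted p = 0.102 and adjusted p = 1.0, edgeR). Its value stayed negative with any single heart left out (-0.40 to -0.24). The mitochondrial enzyme Got2 had 849.9, 773 and 973 CPM in KO hearts 1 to 3, against 1035, 1094 and 768 CPM in WT hearts 1 to 3. WT heart 3 was its lowest heart, and the KO values lay within the WT range (log2 fold change -0.16, SE 0.19, 95% interval -0.61 to 0.29). The count ratio of Got1 to Got2 was 0.928, 1.25 and 0.836 in KO hearts 1 to 3, against 1.02, 0.872 and 1.51 in WT hearts 1 to 3, and the groups overlapped (exact permutation p = 0.6).

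Pyruvate carboxylase and the malic enzymes, which feed or drain the cycle, were all among the 7 lowest of the 32 genes per kilobase of exon. Me1, the cytosolic malic enzyme, which makes NADPH, had the largest positive fitted value. It had 139.5, 148 and 146 CPM in KO hearts 1 to 3, against 117, 141 and 134 CPM in WT hearts 1 to 3. WT heart 1 was lowest, and WT heart 2 lay inside the KO range (log2 fold change 0.15, SE 0.14, 95% interval -0.17 to 0.46). Me2, the NAD-linked mitochondrial form, had 8.77, 7.13 and 6.57 CPM in KO hearts 1 to 3, against 7.50, 9.61 and 7.58 CPM in WT hearts 1 to 3. Me3, the NADP-linked mitochondrial form, had 72.4, 105 and 84.4 CPM in KO hearts 1 to 3, against 84.4, 77.0 and 96.4 CPM in WT hearts 1 to 3. Both overlapped between genotypes (log2 fold change -0.14, SE 0.18 for Me2 and log2 fold change 0.021, SE 0.18 for Me3). Pcx, pyruvate carboxylase, which makes oxaloacetate, averaged 38.1 ± 10.4 CPM in KO hearts and 40.01 ± 9.62 CPM in WT hearts (SD, n = 3 each; log2 fold change -0.071, SE 0.26). Fat cells hold much Me1 and Pcx, and the 7 adipocyte markers summed to 0.172 to 0.816 CPM in KO hearts and 0.253 to 0.895 CPM in WT hearts. Of them 6 of 7, Adipoq and Plin1 included, were at 0 in at least 1 heart. The part of fat cells in the levels of Me1 and Pcx was not tested.

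Per kilobase of annotated exon, Mdh1 led the order of levels, at 814 ± 107 in KO hearts and 868 ± 109 in WT hearts (CPM per kb, SD, n = 3), followed by Idh2 at 699 ± 122 in KO hearts and 730.1 ± 98.0 in WT hearts. The single-heart values of Mdh1 and Idh2 overlapped in both genotypes. Below them, Sdhd, Got1, Sdhb, Ogdh, Mdh2, Sdha and Pdha1 averaged between 324 and 453 in KO hearts and between 335 and 496 in WT hearts, and neighbours among these 7 overlapped. Idh3b was next, and every heart of Pdha1 lay above every heart of Idh3b in both genotypes on this scale. Of 31 neighbouring pairs in the order, 25 overlapped in KO hearts and 24 in WT hearts. At the foot stood Me2 at 1.03 ± 0.157 in KO hearts and 1.14 ± 0.165 in WT hearts, with Me3, Aco1 and Pcx next, each under 10 CPM per kb. When the principal transcript's length replaced that of all exons, a choice made after the data were seen, Idh2 came before Mdh1 in both genotypes, Idh3b averaged 466 against 424 CPM per kb for Pdha1 in KO hearts and 493 against 439 in WT hearts, and Mpc2 moved to rank 13 from rank 24 of 32.

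Which genes were high in KO heart 2 and WT heart 3 went with transcript length. The pair held the 2 highest values for 15 of the 32 genes and the 2 lowest for 8, against 29.4% and 29.0% of all tested genes. Among the 15 were both pyruvate carriers, the 3 Idh3 subunits, Sdhb, Sdhc, Sdhd, Fh1, Idh2 and Mdh1. The 8 were Dlat, Cs, Aco1, Ogdh, Dlst, Sdha, Got2 and Pcx. Principal transcripts of the 15 had a median length of 1616 bases (958 to 4485), and those of the 8 a median of 3379 bases (2530 to 4127). Over all tested protein-coding genes the medians were 1944 and 4434 bases. Both sets were formed from these values, so no test is given.

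Across the 32 genes, Spearman's rho between transcript length and relative level was 0.75, -0.62 and 0.68 in KO hearts 1 to 3, against 0.15, 0.58 and -0.70 in WT hearts 1 to 3. These describe 32 genes that share libraries and are not independent. Over 13094 tested nuclear protein-coding genes rho was 0.40, -0.51 and 0.47 in KO hearts, against 0.044, 0.45 and -0.53 in WT hearts. The signs were the same over all these genes as over the 32. Each deviation is taken from a mean over all 6 hearts, so the 6 values of rho are not independent. RNA quality was not measured in the files, and its part was not tested.

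**Figure D4:**
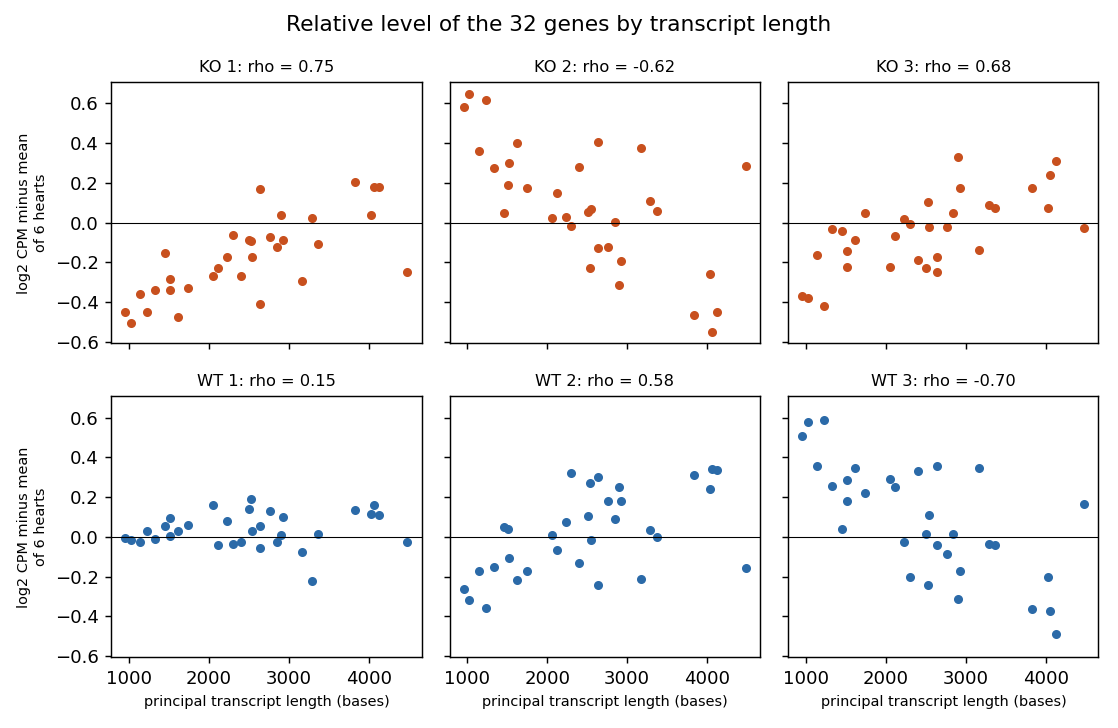
Relative level of each of the 32 genes (y axis, log2 CPM minus the mean of 6 hearts) against the length of its principal transcript (x axis, bases), with KO hearts 1 to 3 above and WT hearts 1 to 3 below. Points slope down in KO heart 2 and WT heart 3 (rho -0.62 and -0.70) and up in KO hearts 1 and 3 and WT heart 2.

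Within-heart ratios need no library scaling, and 17 were compared between genotypes. Of these, 16 overlapped between KO and WT hearts and the ratio of Sucla2 to Suclg2 did not. Full separation of 3 against 3 carries an exact two-sided permutation p of 0.1 for any single ratio, and 17 were looked at. In 12 of 17, the pair of KO heart 2 and WT heart 3 held the 2 highest or the 2 lowest values. The largest difference in mean was that of Me1 to Me2, 0.29 on the log2 scale (KO minus WT; exact permutation p = 0.2), from 15.9, 20.8 and 22.2 in KO hearts, against 15.7, 14.6 and 17.7 in WT hearts. Me2 rests on 207 to 376 counts per heart. Of the ratios of cytosolic to mitochondrial forms, Got1 to Got2 differed by -0.16 on the same scale (-0.33 to 0.066 with 1 heart left out). Mdh1 to Mdh2 differed by 0.0059 (-0.052 to 0.11) and Idh1 to Idh2 by 0.017 (-0.19 to 0.27). The ratio of Pcx to Pdha1, carboxylation set against oxidation of pyruvate, differed by -0.034 (-0.24 to 0.23), lowest without WT heart 3 and highest without KO heart 2. With 1 heart left out, 12 of the 17 differences took both signs, and 5 kept 1 sign, those of Sucla2 to Suclg2, Me1 to Me2, Ogdh to Dlst, Pdha1 to Pdhb and Sdhc to Sdhd. Adjusted over the 17 ratios, every exact permutation p was 1.

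**Figure D5:**
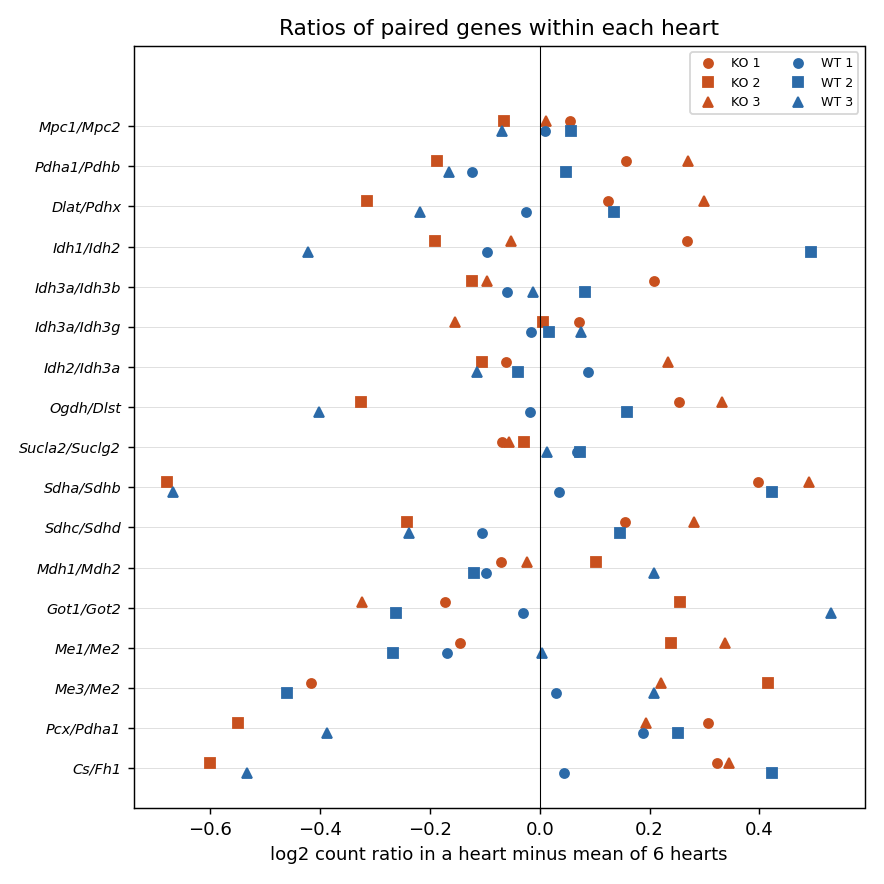
Log2 count ratio of 17 gene pairs in each heart, minus the mean over 6 hearts (x axis), with KO hearts in orange above WT hearts in blue and marker shape for the replicate number. For Sdha/Sdhb and Cs/Fh1 the squares of KO heart 2 and the triangles of WT heart 3 lie far left of the rest, and for Sucla2/Suclg2 the 3 KO points lie left of the 3 WT points.

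Of 41 further genes of pyruvate, lactate, lipoate, anaplerotic and carrier steps, 40 passed the filter, and 0 were called higher and 0 lower by edgeR, which called 0.00689% of all tested genes. Lower values in KO hearts were found for 32 of the 40 and higher for 8, where 47.7% of all tested genes were lower, and their median log2 fold change was -0.13, against 0.0092 over all tested genes. At an unadjusted p under 0.05 stood 0 of the 40, against 1.23% of all tested genes. Ogdhl, a relative of Ogdh, had the smallest p and had 130.3, 83.9 and 121 CPM in KO hearts 1 to 3, against 208, 255 and 100.4 CPM in WT hearts 1 to 3. Its lowest were KO heart 2 and WT heart 3, and WT heart 3 lay within the KO range (log2 fold change -0.75, SE 0.35, 95% interval -1.56 to 0.064). Slc25a13 and Slc25a12, the aspartate-glutamate carriers of the malate-aspartate shuttle, gave log2 fold changes of -0.26 (SE 0.16) and -0.15 (SE 0.13).

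Slc25a12, named after its values were seen, had 225, 247 and 231 CPM in KO hearts 1 to 3, against 264, 253 and 264 CPM in WT hearts 1 to 3. All 3 KO hearts lay below the WT hearts for Slc25a12, and likewise for Mut, the methylmalonyl-CoA mutase, 2 of the 40, where 1.9% of all tested genes had all KO values lower. Nnt, the transhydrogenase that uses the proton gradient to make NADPH, had 422, 671 and 848 CPM in KO hearts 1 to 3, against 942, 997 and 658 CPM in WT hearts 1 to 3. KO heart 1 was its lowest and the groups overlapped (log2 fold change -0.42, SE 0.29, 95% interval -1.09 to 0.25). Slc25a10, the dicarboxylate carrier, and Lipt1, a lipoyltransferase, gave -0.22 (SE 0.15) and -0.23 (SE 0.19) on the log2 scale. The interval lay within a 2-fold difference for 38 of the 40 genes, all but Ogdhl and Nnt. The kinases that switch off pyruvate dehydrogenase, named after their values were seen, gave log2 fold changes of -0.038 for Pdk1 (SE 0.13), -0.14 for Pdk2 (SE 0.19), 0.063 for Pdk3 (SE 0.32) and -0.061 for Pdk4 (SE 0.37), none past the test.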

How the data were processed

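Per the labels, RNA of 6 mouse hearts was extracted with an RNeasy Mini Kit, and NEBNext Ultra II reagents were used for the libraries. Raw counts of reads, as whole numbers, were deposited for each Ensembl gene in each heart. The submitters' processing notes name STAR, featureCounts, Subread 1.5.2, DESeq2 and the build GRCm38.p6, with no role stated. Annotation release, strand setting and handling of shared reads: not given in the sources used here. Of the 32 genes, 6 overlap another protein-coding gene on the opposite strand. For 7, another annotated gene matches at least 95% over 200 bases or more. The only match of Pdha1 is Map3k15 and that of Me3 is A230065N10Rik. Both are genes that overlap them on the opposite strand and are not separate copies. Such counts are uncertain, though every matching gene but Mpc1-ps held at most 0.694% of the counts of the gene it matched. Lrfn4, inside Pcx, had 634, 425 and 581 counts in KO and 422, 360 and 346 in WT hearts.

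From the counts, genes were kept by filterByExpr (minimum count 10, minimum total 15), scaled by TMM and tested KO over WT with the quasi-likelihood test of edgeR 4.0.16 in R 4.3.3, adjusted by Benjamini-Hochberg over 14508 genes; the biological coefficient of variation was 24.2%. The function was tested on simulated data. DESeq2 1.42.0 and limma 3.58.1 were alternatives, beside other scalings, filters, left-out hearts and a replicate block. CPM used TMM-scaled libraries. All 32 symbols, exons and transcripts came from GENCODE M21 on GRCm38, promoters from RefSeq. Ratios used counts and exact two-sided permutation tests. Reads carry no molecular identifiers. The 32 genes, lists, ratios and the rule for named genes were chosen with earlier results of these data known: all 32 are named, with values per heart for the smallest p of each step, isoform pairs and genes without overlap; of other pathway genes, the 5 smallest p. 1 further gene, with its ratio, is not reported here.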

Additional observations from a re-analysis of the deposited data

How the results depend on the processing

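The count of 0 among the 32 genes held under the other scalings, filters and tools, with each heart left out and with the block. The median log2 fold change kept its sign, between -0.14 and -0.0064 with 1 heart left out. The genes with lower values in KO numbered 17 to 27 with 1 heart left out and 27 under every other scaling, filter or tool. Among all genes, edgeR called 0 to 1 with 1 heart left out, 0 of them without KO heart 3 (126 at an unadjusted p under 0.05). Without KO heart 2 and WT heart 3 together, 2 were called, Arrdc4 and Spp1, and 29 of the 32 genes were lower in KO. The ratio of Sucla2 to Suclg2 then differed by -0.13. In that fit Suclg2 and Me3 turned to -0.028 and -0.05. The cause was not tested. With 1 heart left out, log2 fold changes took both signs for 20 of the 32 genes, Mpc1 (-0.53 to 0.13), Mpc2 (-0.57 to 0.18), Cs (-0.18 to 0.0058), Aco1 (-0.22 to 0.14), Idh1 (-0.18 to 0.087), Idh2 (-0.17 to 0.069), Idh3a (-0.30 to 0.043), Idh3b (-0.34 to 0.11), Idh3g (-0.22 to 0.088), Ogdh (-0.18 to 0.22), Suclg1 (-0.31 to 0.023), Suclg2 (-0.012 to 0.076), Sdha (-0.13 to 0.19), Sdhb (-0.33 to 0.079), Sdhc (-0.26 to 0.15), Sdhd (-0.57 to 0.16), Fh1 (-0.36 to 0.069), Mdh1 (-0.20 to 0.015), Pcx (-0.25 to 0.14) and Me3 (-0.13 to 0.14). They kept 1 sign for 12, among them Got1, Pdhb, Pdhx, Dlst and Me1. With the principal transcript's length, 6 level ranks moved by over 1.5 times.

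Deviations from the group means correlated at 0.18, -0.65 and -0.40 between hearts of the same number, 1 to 3, over 14508 genes. KO heart 2 correlated best with WT heart 3 (r = 0.68). Deviations within a group depend on each other, so these values cannot show whether same-numbered hearts were paired by litter or date. With the replicate block edgeR called 0 genes in all (72 at an unadjusted p under 0.05), and 27 of the 32 genes had lower values in KO, with a median of -0.10. Groups of 3 hearts limit what could be seen: the median SE of the 32 genes was 0.19 on the log2 scale.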

Other observations

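Mpc1-ps, annotated as a processed pseudogene of the pyruvate carrier gene Mpc1, had 1358, 1745 and 1254 counts in KO hearts 1 to 3, against 1207, 1268 and 1948 in WT hearts 1 to 3. Its highest were KO heart 2 and WT heart 3, as for the CPM of Mpc1. The files do not show whether those reads came from Mpc1 itself.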
